A study of Rattus norvegicus with 4 samples.

Results

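The muscle ankyrin repeat proteins and some of the four-and-a-half LIM domain (FHL) proteins are stretch-linked partners of titin, the giant spring of the sarcomere. The family was taken as Ankrd1, Ankrd2, Ankrd23, Fhl1, Fhl2, Fhl3 and Fhl5, by the gene symbols of the array platform. All 7 genes were found among the 19868 named genes of the arrays, on 8 features (probe spots), of which Fhl1 had 2 and each other gene 1. Cultured ventricular cardiomyocytes from Sprague-Dawley rats on postnatal day 3 were studied on single-colour arrays. The cells were kept in 5% horse serum with 20 µM of the replication blocker cytosine arabinoside for 48 h before they were infected for 48 h with adenovirus carrying the bacterial reporter beta-galactosidase (2 arrays, the controls) or Smyd2 (2 arrays). Every one of the 4 titles also bears the prefix siScr, which goes unexplained, and whether all cultures got a small interfering RNA is not settled. The series design calls the samples biological replicates, while nothing says how many animals or isolations stand behind them.

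As background, Ankrd1 (also known as CARP), Ankrd2 (Arpp) and Ankrd23 (DARP) bind the N2A segment of titin's elastic I-band and the Z-disc linker myopalladin, and they also enter the nucleus, where they act as cofactors of transcription. Ankrd1 is the cardiac form, a gene induced by load and a much used target of the YAP-TEAD transcription complex, while Ankrd2 is best known from slow skeletal muscle. The FHL proteins are built of LIM zinc fingers that hold protein partners together. Fhl1 ties the MAP kinase cascade to titin's N2B segment in mouse heart, Fhl2 restrains calcineurin and works with serum response factor (SRF), Fhl3 is a skeletal muscle and actin-associated form, and Fhl5 is an activator of CREM known from testis. The enzyme that was expressed here, SMYD2, is a lysine methyltransferase that methylates the chaperone HSP90 and associates with the N2A segment in muscle.

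The promoters of Fhl1 and Fhl2 are shown because they are the brightly measured members with an SRF-type sequence before a start. RefSeq's promoter table on the rat build GRCr8 held 8 starts for 6 of the 7 members, all but Ankrd1, and the 250 bases before each start were searched on both strands. The capitals mark the CArG box (the SRF site, CC, then A or T at each place, then GG), CATTCC (the M-CAT element that TEAD factors read), GATAA and TATAAA, or their reverse complements. The first Fhl1 window lies at chrX:139638246-139638495 on the plus strand. The window of the second Fhl1 start held none of the searched sequences and is not shown. The Fhl2 windows lie at chr9:52954541-52954790 and chr9:52923327-52923576 on the minus strand.
Fhl1, first start: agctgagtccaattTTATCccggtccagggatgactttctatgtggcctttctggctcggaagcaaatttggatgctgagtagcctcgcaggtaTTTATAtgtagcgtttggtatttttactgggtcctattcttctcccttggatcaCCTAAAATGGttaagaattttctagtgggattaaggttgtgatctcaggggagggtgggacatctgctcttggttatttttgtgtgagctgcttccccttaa
Fhl2, first start: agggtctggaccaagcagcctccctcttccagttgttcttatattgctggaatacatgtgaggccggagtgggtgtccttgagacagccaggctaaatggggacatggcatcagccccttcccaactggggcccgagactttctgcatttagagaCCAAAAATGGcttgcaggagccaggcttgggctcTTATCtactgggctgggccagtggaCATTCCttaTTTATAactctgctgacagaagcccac
Fhl2, second start: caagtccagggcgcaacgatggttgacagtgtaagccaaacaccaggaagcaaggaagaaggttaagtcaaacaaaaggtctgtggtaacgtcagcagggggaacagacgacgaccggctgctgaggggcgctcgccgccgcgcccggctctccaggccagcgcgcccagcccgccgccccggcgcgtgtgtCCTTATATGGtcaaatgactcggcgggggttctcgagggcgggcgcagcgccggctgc

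A CArG box was found in 3 of the 8 member windows and in 1.5% of all 33469 promoter windows of the table. It sat 102 to 93 bases before the first Fhl1 start, 95 to 86 bases before the first Fhl2 start and 58 to 49 bases before the second Fhl2 start. CATTCC was found in 2 of the 8 windows, of Fhl2 and Ankrd23, and in 12.1% of all windows. GATAA and TATAAA were each found in 3 member windows, against 23.5% and 12.9% of all windows, and the MEF2 site in none of the 8, against 0.523%. These matches describe letters only.

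The single Smyd2 feature read 8.72 and 8.86 in the controls and 8.92 and 8.42 on the Smyd2-labelled arrays (difference −0.12, 95% interval −0.83 to 0.60). Its groups overlapped, so the arrays do not show the overexpression, the groups are called Smyd2-labelled and control, and every direction below rests on the labels. Where this probe sits relative to the expressed construct is unknown.

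On the Smyd2-labelled arrays the family did not move as one. Ankrd1 read 3.54-fold lower than in the controls and Fhl1 1.90-fold lower, Fhl2 and Fhl3 read slightly higher, and Ankrd2, Ankrd23 and Fhl5 were dim in both groups. None of the 7 members passed limma's test adjusted over all genes, a threshold that 0 of the 19868 genes passed (0%). At an unadjusted p under 0.05, 2 of the 7 members passed, Ankrd1 and Fhl1, both lower, where 11.9% of all genes passed and 6.39% did so on the lower side. None of the 7 passed on the higher side, as 5.51% of all genes did. The groups did not overlap in 4 of the 7 members (42.7% of all genes), in 3 of them with the Smyd2-labelled arrays lower (20.8% of all genes) and in 1 with them higher (21.9%). Over the 7 members 4 differences were above 0 and 3 below, with a median of 0.05 against 0.01 over all genes. In bulk cultures, fewer cells of a type and less RNA per cell cannot be told apart.

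**Figure D1:**
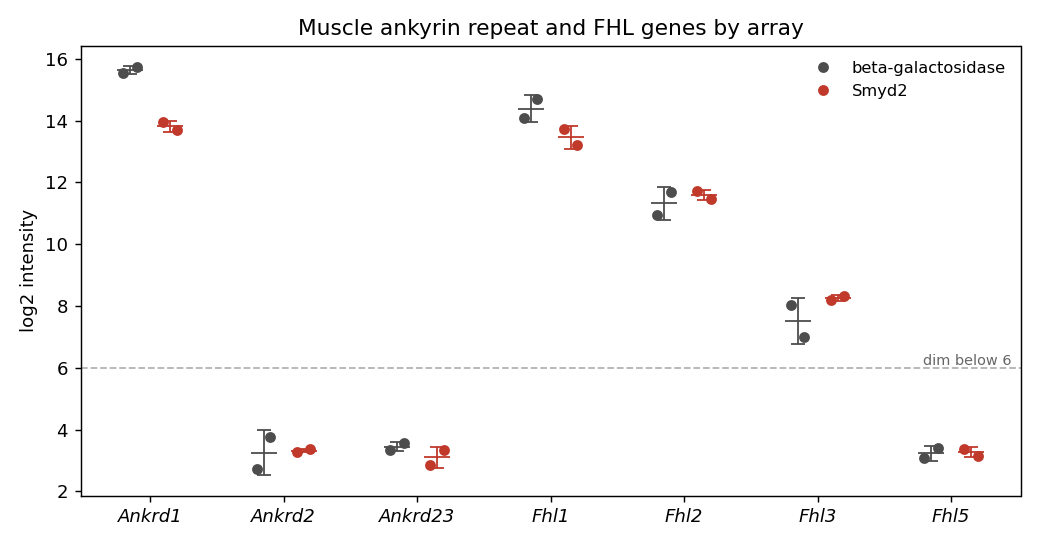
Log2 intensity (vertical axis) of each member on the 2 beta-galactosidase arrays (grey) and the 2 Smyd2 arrays (red). Points are arrays, horizontal ticks the group means and bars the SD over 2 arrays; the dashed line marks the intensity of 6 under which a gene was taken as dim. Ankrd1 shows a gap of 1.62 between the closest arrays of the groups, while Ankrd2, Ankrd23 and Fhl5 lie below the line on all 4 arrays.

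Of the ankyrin repeat members, Ankrd1 read 15.55 and 15.72 log2 units in the controls and 13.94 and 13.69 on the Smyd2-labelled arrays. Both control arrays were high and both others low, with no overlap, and the controls stayed clear of the upper end of the scale, set here as the last 0.1 below the highest value of 16. The log2 difference was −1.82 (SE 0.24, 95% interval −2.45 to −1.20, n = 2 arrays per group), with a limma adjusted p of 0.154 and an unadjusted limma p of 0.000665. Only 1.2% of all genes had a lower difference. When limma modelled the variance by intensity with a robust prior, Ankrd1 passed (adjusted p = 0.00209), as 1 of the 7 members against 1.93% of all genes. The call on Ankrd1 thus hangs on the variance model. The size of its difference cannot, because that model leaves the group means as they are. Leaving out any single array gave −1.95 to −1.70. An exact permutation test of 2 arrays against 2 cannot go below p = 0.333 for any gene.

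Ankrd2, the slow skeletal form, read 2.74 and 3.77 in the controls and 3.29 and 3.36 on the Smyd2-labelled arrays. The controls enclosed the other group, and the difference of 0.07 (SE 0.39, 95% interval −0.94 to 1.09) lay well inside the spread of the controls. Ankrd23, a form of skeletal muscle and heart that responds to metabolic signals, read 3.35 and 3.56 in the controls and 2.87 and 3.33 on the Smyd2-labelled arrays. Its groups were apart by no more than 0.02, with a difference of −0.36 (SE 0.28, 95% interval −1.07 to 0.35), and it ran from −0.59 without Smyd2 replicate 2 to −0.13 without Smyd2 replicate 1. Both genes lay under the log2 intensity of 6 that was taken as dim, as did 54% of all genes. The deposited values carry no detection flags, so it is not known whether these features lay above background, and a difference at this intensity may understate the change of the transcript.

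Among the FHL members, Fhl1 read 14.09 and 14.69 in the controls and 13.72 and 13.20 on the Smyd2-labelled arrays. The groups did not overlap, but their closest arrays were 0.37 apart, less than the 0.61 between the controls. The difference came to −0.93 (SE 0.34), with a 95% interval of −1.79 to −0.06 and a limma adjusted p of 0.394. The other Fhl1 feature read 13.58 and 14.17 against 13.16 and 12.83, again apart, with a difference of −0.88 (SE 0.31). The difference of the brighter Fhl1 feature shrank to −0.63 without beta-galactosidase replicate 2 and to −0.67 without Smyd2 replicate 2, with unadjusted limma p of 0.144 and 0.197 where the single array left in a group is assumed to vary like the other group. It grew to −1.23 without beta-galactosidase replicate 1.

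Fhl2, the main heart form of the FHL proteins, read 10.94 and 11.70 in the controls and 11.71 and 11.48 on the Smyd2-labelled arrays. One control array was low and the other level with the Smyd2-labelled arrays, and the groups overlapped. The difference was 0.27 (SE 0.34, limma adjusted p = 0.813). Its 95% interval of −0.59 to 1.14 leaves room for a moderate rise or a smaller fall. Without beta-galactosidase replicate 1 the sign turned, to −0.11.

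Fhl3 read 8.04 and 7.0 in the controls and 8.18 and 8.32 on the Smyd2-labelled arrays. Both arrays labelled Smyd2 lay above both controls, by 0.14 at the closest, against a gap of 1.04 between the controls. The difference came to 0.73 (SE 0.40), with a 95% interval of −0.30 to 1.76 and a limma adjusted p of 0.561. A single control array set its size: without beta-galactosidase replicate 1 it was 1.25, and with replicate 2 left out instead it was 0.21. Fhl5 was dim, at 3.07 and 3.40 in the controls and 3.39 and 3.16 on the others, and its groups overlapped (difference 0.05, SE 0.26).

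**Figure D2:**
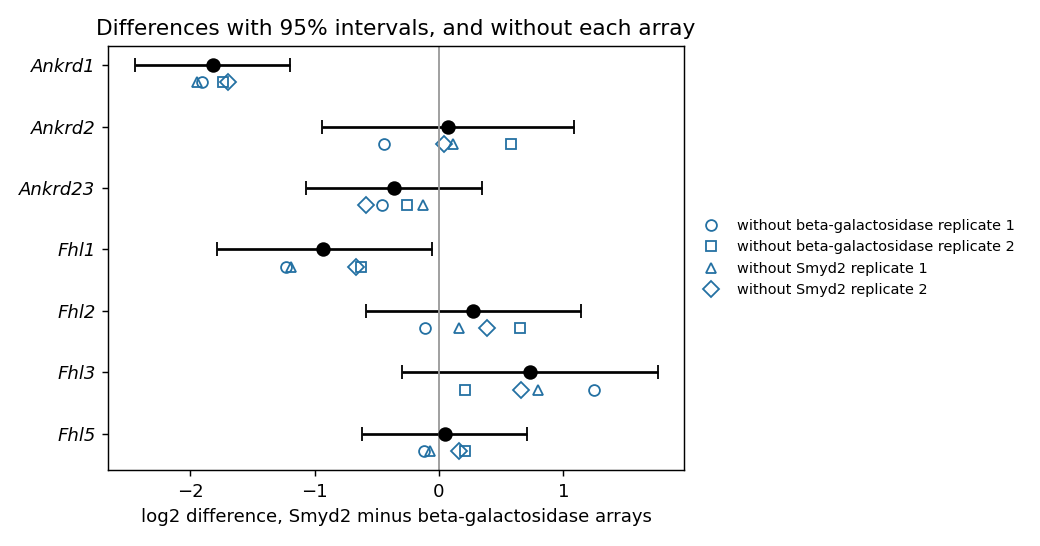
Log2 difference, Smyd2 minus beta-galactosidase arrays (horizontal axis), of each member. Filled points with bars are the estimates with 95% intervals from limma over 4 arrays, and open symbols are the estimates without each single array. The intervals of Ankrd1 and Fhl1 lie below 0, and the open symbols of Ankrd2, Fhl2 and Fhl5 fall on both sides of 0.

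The ratio of 2 transcripts within an array is free of a shift common to that whole array, though not of a normalization that depends on intensity. Taken relative to the control mean, the log2 ratio of Ankrd1 to Fhl2 read 0.30 and −0.30 in the controls and −2.09 and −2.11 on the Smyd2-labelled arrays, a shift of −2.10. The ratio of Ankrd1 to Fhl1 read 0.22 and −0.22 against −1.03 and −0.76, a shift of −0.89. Ankrd1 was thus lower relative to both FHL genes on each of the Smyd2-labelled arrays. The ratio of Fhl1 to Fhl2 shifted by −1.20, with 0.08 and −0.08 against −1.06 and −1.35. Of the 6 ratios among the 4 members above the dim limit, 5 had groups that did not overlap, and Fhl2 to Fhl3 overlapped. Over all ratios of 2 genes at or above that limit, 53.8% did not overlap, and the 6 ratios share 4 genes, so their count is no result about the family. With 2 arrays per group no test of these ratios can fall below the 0.333 given above.

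Markers of the labelled cell type, listed with earlier results of these data known, were bright. All 12 cardiomyocyte markers had a mean of 6 or more. Actc1 lay within 0.1 of the highest value on all 4 arrays, so its direction cannot be read. The other 11 read lower on the Smyd2-labelled arrays, with a median of −2.18. Their groups did not overlap, as in 20.8% of all genes on the lower side. Of them 10 had an unadjusted p under 0.05 (11.9% of all genes). Of the 11, 3 were within 0.1 of the highest value on both control arrays and Myh7 was so on control replicate 2, which makes their differences lower bounds. The mean of the 7 markers below that level on all 4 arrays read 12.65 and 13.05 in the controls and 10.46 and 10.53 on the Smyd2-labelled arrays, a difference of −2.36. The difference of Ankrd1 lay 0.53 above that of these markers, and those of Fhl1, Fhl2 and Fhl3 lay 1.43, 2.63 and 3.09 above it. Ankrd1 thus came nearest to the markers among the 4 members above the dim limit. Its controls, at 15.55 and 15.72, lay nearer the highest value of 16 than the mean of these markers did. Whether that narrowed its difference was not tested.

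Fibroblast markers, and most leukocyte markers, read higher beside them, while the other marker lists gave no uniform direction. Col1a1 was at the top of the scale on all 4 arrays. The other 13 fibroblast markers read higher, with a median of 0.97, and 6 of them had an unadjusted p under 0.05 (11.9% of all genes). The median of all 14 ran from 0.45 without beta-galactosidase replicate 1 to 1.11 without beta-galactosidase replicate 2, against 0.94 with every array. The mean level of all 14 was 9.36 and 9.96 in the controls and 10.75 and 10.45 on the Smyd2-labelled arrays, and Lum and Fap were dim. Of 14 smooth muscle and pericyte markers 10 were higher, with a median of 0.58 that turned to −0.04 without beta-galactosidase replicate 1, mean levels of 10.18 and 10.61 against 10.93 and 10.70, and no dim marker. Leukocyte markers were higher in 13 of 14, with a median of 1.22, mean levels of 5.84 and 5.13 against 7.08 and 5.94, and 8 dim markers, among them Ptprc and Csf1r. The leukocyte median ran from 0.38 without Smyd2 replicate 1 to 1.93 without Smyd2 replicate 2. Of 12 endothelial markers 8 were higher, with a median of 0.32, mean levels of 6.75 and 5.99 against 6.51 and 6.52, and 6 dim markers, Pecam1 and Cdh5 included. The endothelial median was 0.04 without beta-galactosidase replicate 2, 0.18 without Smyd2 replicate 2 and 0.58 without beta-galactosidase replicate 1. Of 16 skeletal muscle markers 12 were dim, among them the lineage factors Myod1 and Myog and the fast myosin Myh4; 12 of the 16 read lower, with a median of −0.39 and mean levels of 5.22 and 5.96 against 5.14 and 5.15. The skeletal median was −0.80 without beta-galactosidase replicate 1, −0.26 without replicate 2, and −1.44 over the 4 markers that were not dim. The part of a shift in cell types in the differences of the ankyrin repeat and FHL genes was not tested.

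**Figure D3:**
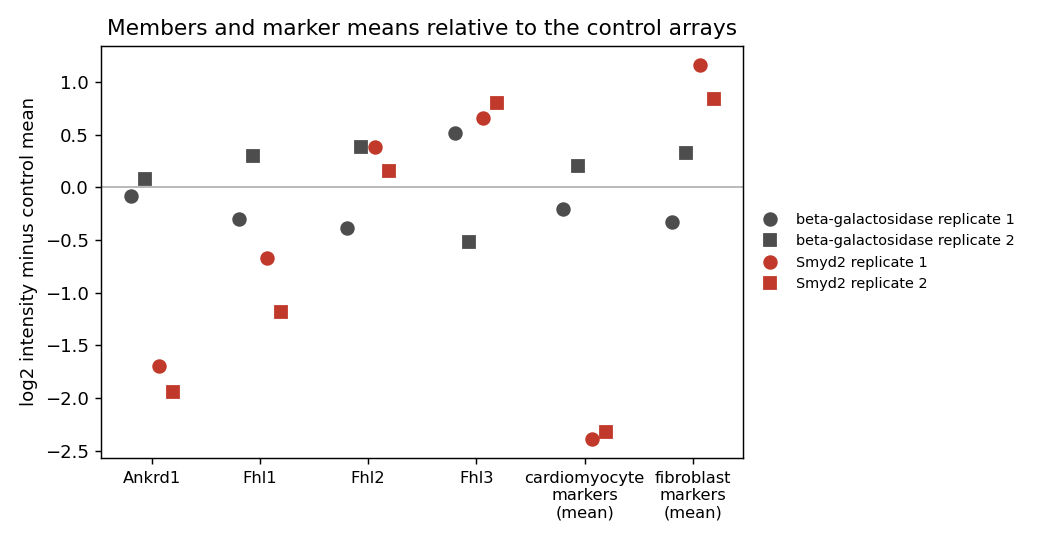
Log2 intensity minus the mean of the control arrays (vertical axis) for 4 members, for the mean of the 7 cardiomyocyte markers below the top of the scale on all 4 arrays, and for the mean of the 13 fibroblast markers below it. Each symbol is an array, grey for beta-galactosidase and red for Smyd2, circles for replicate 1 and squares for replicate 2. Ankrd1 and the cardiomyocyte markers lie far below 0 on both red arrays, Fhl1 less far, and Fhl2 within the range of the controls or level with it.

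Transcripts of titin, of proteins at its N2A and I-band segments and of the chaperones and ligases of the same sarcomere read lower in part. Of 13 measured genes of this list, Cryab was at the top of the scale on all 4 arrays. Of the other 12, 10 read lower, with a median of −1.70, and 6 had an unadjusted p under 0.05, all lower (6.39% of all genes). The 10 include Smyd2 itself (−0.12, SE 0.28), and Ttn is also on the cardiomyocyte marker list. Titin itself, Ttn, read 10.94 and 10.82 in the controls and 7.70 and 8.60 on the Smyd2-labelled arrays (difference −2.73, SE 0.36), although its 5 features ranged from −2.73 to 0.11. Trim55, a ubiquitin ligase of the M-band and microtubules, read 10.62 and 11.38 against 8.25 and 7.96, and Unc45b, the myosin chaperone that works with HSP90, 12.02 and 12.95 against 10.20 and 10.34. Desmin, Des, the intermediate filament around the Z-disc, differed by −1.81 (SE 0.26), next to the −1.82 of Ankrd1. Without beta-galactosidase replicate 2 the median of all 13 was −0.52, against −1.59 with every array.

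Further genes of that list are given for their place beside the members and were chosen after their values were seen. Myopalladin, Mypn, the shared Z-disc partner of the ankyrin repeat proteins, read 5.65 and 6.63 in the controls and 4.49 and 3.42 on the Smyd2-labelled arrays, below 6 on 3 of the 4. The HSP90 genes were nearly level, with −0.25 (SE 0.25) for Hsp90aa1 and 0.06 (SE 0.23) for Hsp90ab1.

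Partners and regulators of the ankyrin repeat proteins went different ways. Of 9 measured genes 6 were lower, with a median of −0.24 (−0.07 without beta-galactosidase replicate 1), and 3 had an unadjusted p under 0.05 (11.9% of all genes). These were Nkx2-5, the homeobox factor that drives Ankrd1 in mouse heart (8.64 and 9.47 against 6.60 and 6.55), the calcium store protein Casq2, which binds Ankrd1 (−2.21, SE 0.35), and the slow myosin Myh7, at 15.67 and 15.98 against 13.96 and 13.92, where −1.89 is a lower bound. Casq2 and Myh7 are also on the cardiomyocyte marker list. Sqstm1, an autophagy adaptor, differed by 0.53 (SE 0.34). Ybx1, the nuclear partner of Ankrd1, and Gata4, a factor that acts on its promoter, differed by −0.24 (SE 0.23) and −0.14 (SE 0.23), and both were named after their values were seen.

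Most genes of the YAP-TEAD pathway, of which Ankrd1 is a common readout, read slightly higher on the Smyd2-labelled arrays. The list holds inhibitors of the pathway beside its targets. Of 25 measured factors and targets 20 read higher and 5 read lower, where 51.2% of all genes read higher. In 12 of the 25 the Smyd2-labelled arrays lay above both controls (21.9% of all genes), and in 1 they lay below both (20.8%). The median of the 25 was 0.18, and 2 had an unadjusted p under 0.05, both higher, a smaller share than the 11.9% of all genes. When limma modelled the variance by intensity with a robust prior, 5 of the 25 had an unadjusted p under 0.05, against 12.8% of all genes. Leaving out single arrays gave medians of 0.14 (without Smyd2 replicate 1) to 0.21 (without beta-galactosidase replicate 1). In the main fit the 2 genes under that p were Ptpn14 and Vgll4. The phosphatase Ptpn14, a YAP inhibitor, read 9.35 and 9.37 against 10.21 and 10.18 (difference 0.84, but 0.17 on its other feature). Vgll4, a TEAD competitor, read 9.10 and 9.34 against 10.24 and 9.97. Tissue factor, F3, differed by 0.59 (SE 0.27) and the junction protein Amotl1 by 0.56 (SE 0.24). The classic targets Ccn1 and Ccn2, picked after their values were seen, differed by −0.43 (SE 0.25) and −0.10 (SE 0.28), against −1.82 for Ankrd1. Whether the difference of Ankrd1 departs from theirs was not tested.

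Genes known to respond to stretch and load were lower in 19 of 21, against 48.8% of all genes, with a median of −0.79. Of them 12 had an unadjusted limma p under 0.05, all lower, as did 6.39% of all genes. Myh7, a cardiomyocyte marker, is on this list too, and whether the list departs from those markers was not tested. The natriuretic peptide genes Nppa and Nppb differed by −1.82 (SE 0.23) and −2.16, the latter a lower bound because both controls were at 15.99. Skeletal actin, Acta1, differed by −2.61 (SE 0.29) and Csrp3, a LIM protein of the Z-disc, by −2.35 (SE 0.25). The median was −1.74 without beta-galactosidase replicate 1.

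Partners of the FHL proteins were nearly level. Of 13 measured genes 8 read higher and 5 read lower, at a median of 0.10 that turned to −0.03 without beta-galactosidase replicate 1. Only the muscle laminin receptor Itga7 had an unadjusted limma p under 0.05, where 11.9% of all genes did. It read 8.64 and 8.08 in the controls and 7.39 and 6.98 on the Smyd2-labelled arrays (difference −1.18, SE 0.31). The kinase Map2k2, part of the cascade that Fhl1 holds, differed by 0.18 (SE 0.24), and the calcineurin subunit Ppp3ca, which Fhl2 restrains, by −0.25 (SE 0.24). Sphk2, a sphingosine kinase, differed by 0.30 (SE 0.23).

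Other LIM proteins also went in both directions. Of 20 measured genes 14 read higher and 6 read lower. Their median was 0.19 (0.15 to 0.34 with single arrays left out). Of the 20, 5 had an unadjusted limma p under 0.05 (11.9% of all genes), 2 higher (5.51%) and 3 lower (6.39%). The lower ones were Csrp3, Crip2, a cysteine-rich LIM protein of heart and vessels (−1.11, SE 0.28), and Lmo7, a junction and nuclear membrane protein (−0.80, SE 0.23). The higher ones were the focal adhesion scaffold Pxn (0.82, SE 0.28), named after its value was seen, and Fblim1, a filamin partner at focal adhesions. Fblim1 read 8.90 and 9.18 in the controls and 10.26 and 10.23 on the Smyd2-labelled arrays. Letters of an SRF site stood before the first Fhl1 start and both Fhl2 starts. Factors and targets of SRF were higher in 10 of 19, Actc1 at the top of the scale among the rest. Their median of 0.21 turned to −0.12 without beta-galactosidase replicate 1. Acta1 and Csrp3 were lower as given above, the SRF coactivator Myocd differed by −1.05 (SE 0.25) and Mrtfa by 0.53 (SE 0.25).

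**Figure D4:**
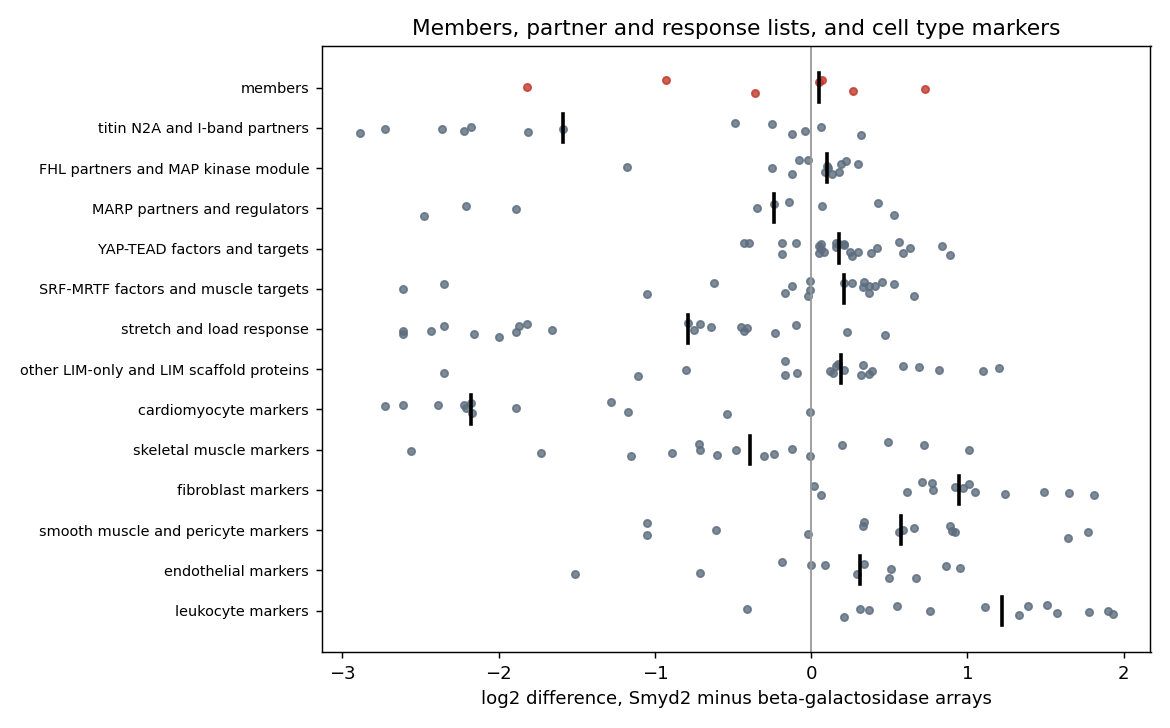
Log2 difference, Smyd2 minus beta-galactosidase arrays (horizontal axis), of every measured gene of the 7 members (red) and of the lists of partners, response genes and cell markers (grey). Vertical bars are medians, and points are spread vertically only to be seen. The members span −1.82 to 0.73, the cardiomyocyte markers have a median of −2.18 and the fibroblast markers one of 0.94.

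The genes with the most similar values over the 4 arrays were sought among up to 8993 named genes with a mean of 6 or more, by the root mean square distance of log2 values centred on each gene's mean. For Ankrd1 these were Des (0.0484), Sgca (0.0536) and Hip1r (0.0562), and 5 genes lay within 0.1. For Fhl1 they were Rtn4rl1 (0.0218), Mgll (0.0442) and Coa5 (0.0629), also with 5 genes within 0.1. Fhl3 was nearest to Eps8 (0.0499), Ptgs1 (0.0614) and Tpcn1 (0.0737), with 9 genes within 0.1. Fhl2 was nearest to Rras (0.0117), Asmtl (0.0274) and Olr59 (0.0283), and 85 genes lay within 0.1, so its pattern was a common one. Over 4 arrays that likeness describes these values only.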

How the data were processed

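The authors deposited log2 intensity values of 4 single-colour arrays, 62976 features each. Their quartiles and range are the same on each array, as after quantile normalization, which removes overall shifts between arrays. The tool named by the submitters' processing notes is limma; how background and normalization were handled is not stated there. Of the features, 36191 had 1 gene symbol and 26785 were unnamed. Named features were matched to RefSeq's assembly GRCr8 by accession (28236), current symbol (7479) or older symbol (457), which changed the symbol of 3339; 19 kept the platform's symbol. Each gene was represented by the feature brightest on average.

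Groups and replicate numbers came from the titles. The test was limma 3.58.1 under R 4.3.3 (lmFit, eBayes without trend, two-sided, Benjamini-Hochberg over 19868 genes, threshold 0.05), with 2 residual degrees of freedom and a prior of 3.01; the fit was checked on simulated data. The number of arrays limits the precision. No test was made of a list. The members, lists and alternatives were chosen with earlier results of these data known. Genes named are the members, up to 4 genes of each list with the smallest p, the 3 genes most like a member, and others where stated. For the marker lists only counts, means and dim markers are given. Alternatives were repeated quantile normalization, median centring, leaving out genes with a mean under 6, a variance trend with or without robust prior, replicate number as block, other handling of features, a size threshold, and leaving out each array.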

Additional observations from a re-analysis of the deposited data

How the results depend on the processing

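Ankrd1, Ankrd23, Fhl1 and Fhl3 kept their direction under every alternative that was run on them. With the variance modelled by intensity and a robust prior, 383 genes passed the adjusted threshold; the intensity trend alone, chosen after seeing the data, gave 243; under each, 1 member passed, Ankrd1, at −1.82 (adjusted p = 0.00209 and 0.00717). A size of 1 log2 unit with groups apart, which is no test, held for 1340 of the 19868 genes and for 1 of the 7 members. Leaving out each array gave differences of −0.44 to 0.58 for Ankrd2, −0.11 to 0.65 for Fhl2 and −0.12 to 0.21 for Fhl5, whose signs turned. So did the medians of the FHL partners (−0.03 to 0.12), SRF (−0.12 to 0.51) and smooth muscle lists (−0.04 to 0.78). With the replicate number as a block, 1 member had an unadjusted limma p under 0.05, as did 11.3% of all genes. The block changed no other call on a member. Same-numbered arrays shared no deviation (correlation 0.032), so the numbers were not taken as pairs. The cause of these changes was not tested, beyond that a fit on 3 arrays has fewer samples. No detection flags were at hand, which limits Ankrd2, Ankrd23 and Fhl5.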
